A study of Mus musculus with 4 samples.

Results

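The genes described here encode the proteins that fold chromosomes in somatic cells: the cohesin core (Smc1a, Smc3, Rad21), its alternative STAG subunits (Stag1, Stag2), the cohesin loader subunit Nipbl, the boundary factor Ctcf, and the condensin subunits Smc2, Smc4 and Ncaph2. They were chosen by symbol, from a fixed set of names, and all 10 were found among the 14382 genes of the deposited table. They were measured in mouse embryonic stem cells (ESCs) with floxed Arid1a alleles and CreERT2, a Cre recombinase that enters the nucleus once 4-hydroxytamoxifen (4-OHT) is bound. One group received ethanol and the other 1 µM 4-OHT, each for 24 hours, and RNA was taken 72 hours after treatment. Each group had 2 polyA libraries. All cells carried the floxed alleles and CreERT2 and grew on irradiated fibroblast feeders with LIF, so both groups share the genotype before recombination and a source of feeder RNA. There was no group given 4-OHT without the floxed alleles, so deletion of Arid1a and exposure to 4-OHT with active Cre cannot be told apart.

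Cohesin is a ring of the SMC1 and SMC3 ATPases closed by a kleisin subunit, RAD21 in somatic cells, to which one STAG protein binds. It holds sister chromatids together until division, and in interphase it extrudes chromatin loops that tend to stop at CTCF bound to DNA in convergent orientation. NIPBL, with MAU2, loads cohesin and drives extrusion, while WAPL with PDS5 releases it. Condensin is a related ring built on SMC2 and SMC4 that compacts chromosomes in mitosis; NCAPH2 is the kleisin of condensin II, the form that resides in the nucleus during interphase. In meiosis SMC1B, STAG3, REC8 and RAD21L replace the somatic subunits. ARID1A is a DNA-binding subunit of BAF, a chromatin remodelling complex, and the comparison asks whether the transcripts of these chromosome proteins differ once Arid1a is deleted.

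Somatic subunits are set beside their meiotic paralogs below, and for this the RefSeq promoters (GRCm38.p6, 250 bases before to 50 after the start, 5′ to 3′) of Smc1a and Stag1 are shown here with those of Smc1b and Stag3. Windows were given for 6 of the 10 genes and for all 4 meiotic genes searched. Capitals mark matches, on either strand, to TTCCCGC (an E2F motif, in 4.60% of the 32851 windows of all genes) or CACGTG (an E-box, in 7.15% of them), and these motifs do not overlap each other here.
Smc1a (chrX:152016178-152016477, plus strand): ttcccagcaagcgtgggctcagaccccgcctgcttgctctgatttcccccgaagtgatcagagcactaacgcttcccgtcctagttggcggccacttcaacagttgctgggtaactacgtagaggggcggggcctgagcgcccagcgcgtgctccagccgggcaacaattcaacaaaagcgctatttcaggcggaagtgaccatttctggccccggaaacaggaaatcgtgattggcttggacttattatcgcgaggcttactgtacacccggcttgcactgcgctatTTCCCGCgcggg
Smc1b (chr15:85131908-85132207, minus strand): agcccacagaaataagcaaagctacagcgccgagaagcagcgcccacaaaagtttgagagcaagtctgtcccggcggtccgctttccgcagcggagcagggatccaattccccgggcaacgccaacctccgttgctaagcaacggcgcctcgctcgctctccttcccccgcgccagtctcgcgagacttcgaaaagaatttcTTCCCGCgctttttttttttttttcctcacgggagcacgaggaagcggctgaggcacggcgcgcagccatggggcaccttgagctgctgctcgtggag
Stag1 (chr9:100643198-100643497, plus strand): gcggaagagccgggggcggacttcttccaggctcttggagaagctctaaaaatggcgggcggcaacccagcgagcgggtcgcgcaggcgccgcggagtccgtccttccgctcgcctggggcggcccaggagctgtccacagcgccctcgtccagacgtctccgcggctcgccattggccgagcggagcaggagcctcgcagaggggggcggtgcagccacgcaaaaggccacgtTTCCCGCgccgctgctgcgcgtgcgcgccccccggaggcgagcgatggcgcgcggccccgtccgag
Stag3 (chr5:138280259-138280558, plus strand): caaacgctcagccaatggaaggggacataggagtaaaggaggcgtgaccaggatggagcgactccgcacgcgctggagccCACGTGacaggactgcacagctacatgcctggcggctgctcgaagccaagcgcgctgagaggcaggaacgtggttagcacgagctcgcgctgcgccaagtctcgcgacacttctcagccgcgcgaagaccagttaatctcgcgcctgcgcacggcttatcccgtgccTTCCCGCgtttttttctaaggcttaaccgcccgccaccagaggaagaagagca
The E2F letters stood once in each of these 4 windows, those of both the somatic and the meiotic paralogs, with the first base at 289 in Smc1a, 203 in Smc1b, 235 in Stag1 and 248 in Stag3, counted from 1 at the 5′ end of the window. Only the Stag3 window among the 10 searched held the E-box. The other windows, of Smc3, Ctcf, Smc2, Ncaph2, Rec8 and Rad21l, held neither. The CpG dinucleotide count was 23 in Smc1a, 29 in Smc1b, 43 in Stag1 and 30 in Stag3, beside a median of 7 over all windows. A match is a description of these letters and not a bound site. The Stag1 window lies inside the annotated gene (chromosome 9, 100597798 to 100959375), as does that of Stag3 (chromosome 5, 138280240 to 138312393). Each thus belongs to a RefSeq start other than the first base of the annotated gene.

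The libraries held between 6027832 and 6823507 reads, recovered from the group means the authors deposited as CPM (reads scaled to the size of their library). A and B name the libraries of a group, since the columns carry no replicate numbers. Arid1a itself, the check of the labels, stood at 517 and 502 CPM in ethanol and at 241 and 213 CPM with 4-OHT (limma adjusted p = 7.33e-06). These values cover the gene, not the floxed part alone. Summed ESC markers lay between 3987 and 4294 CPM in all 4 libraries, but single markers moved in both directions. Of these 10 markers, limma called 2 higher (Nanog and Tdgf1) and 3 lower (Sox2, Esrrb and Tfcp2l1). Over all genes it called 5.25% higher and 4.20% lower. Summed feeder markers (11 of 16 listed in the table, without Dcn, Lum, Postn, Twist2 and Fap) were 230 and 233 CPM in ethanol and 259 and 247 CPM with 4-OHT. Of the 11, limma called 2 higher and 1 lower, beside 5.25% and 4.20% of all genes. Col1a2 alone had 19.7 and 22.0 CPM in ethanol and 47.5 and 42.4 CPM with 4-OHT. Col5a2 went the other way, from 33.0 and 31.2 CPM to 19.5 and 23.5 CPM. The libraries were made with either of 2 kits, and the labels do not say which had which, so a kit difference cannot be told apart from the treatment. The labels do not state whether the libraries of a group came from different cultures, and a p-value covers no more than the spread among these libraries, which may be technical.

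None of the 10 genes passed the test between 4-OHT and ethanol. In limma 0 rose and 0 fell at an adjusted p of 0.05, beside 9.45% of all 14373 tested genes called in either direction. At an unadjusted p under 0.05, limma had 1 of the 10 (Rad21), beside 23.9% of all genes. The quasi-likelihood test of edgeR and DESeq2, run on the recovered reads, also called 0 of the 10, beside 15.8% and 5.07% of the genes they tested. In a set of 10 genes, a count of 0 is near such shares and does not set these genes apart. The ratio of the group means ran from 0.913 (Smc4) to 1.05 (Smc3). The median log2 fold change of CPM + 1 was 0.00064 over the 10 genes and -0.0015 over all genes. A p that misses the threshold does not show equal levels, so the 95% confidence interval of each fold change is given below. In bulk RNA, fewer cells of a type and less RNA per cell cannot be told apart.

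**Figure D1:**
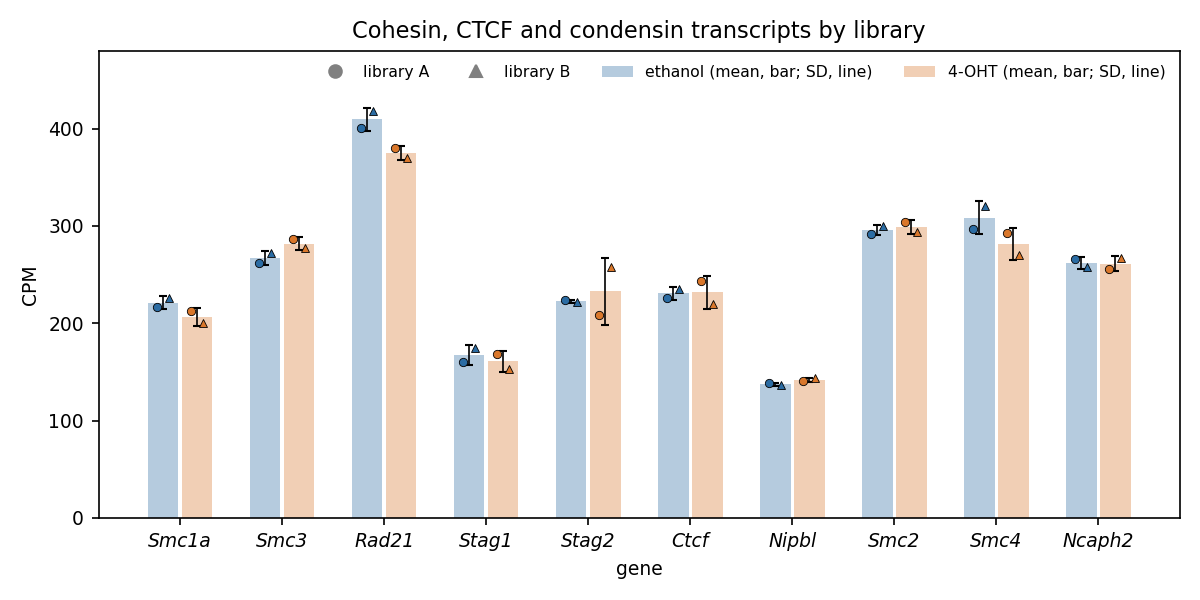
CPM (vertical axis) of the 10 genes in ethanol (blue) and with 4-OHT (orange); circles and triangles are libraries A and B, bars the mean and lines the SD. Rad21 was at 401 and 418 CPM in ethanol and at 380 and 370 CPM with 4-OHT, and the widest pair is that of Stag2 with 4-OHT, at 209 and 257 CPM.

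Of the cohesin ring, Smc1a (ENSMUSG00000041133, mm10 chromosome X, 152016428 to 152062694) encodes an ATPase subunit and had 217 and 226 CPM in ethanol against 213 and 200 CPM with 4-OHT. Both 4-OHT values lay below both ethanol values. Its log2 fold change was -0.10 (95% interval -0.23 to 0.033, limma adjusted p = 0.351). Smc3 (ENSMUSG00000024974, chromosome 19, 53600398 to 53645833), the partner ATPase, went the other way, with 262 and 272 CPM in ethanol and 286 and 277 CPM with 4-OHT. The groups of Smc3 did not overlap either, and its log2 fold change was 0.075 (interval -0.048 to 0.20, limma adjusted p = 0.463).

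Rad21 (ENSMUSG00000022314, chromosome 15, 51962240 to 51991747), the kleisin that closes the ring and that separase cuts at anaphase, had 401 and 418 CPM in ethanol and 380 and 370 CPM with 4-OHT. The 4-OHT libraries were both lower. The mean was 409 ± 12.2 CPM in ethanol and 375 ± 7.33 CPM with 4-OHT (SD, n = 2 per group), a ratio of 0.916. Its interval for the log2 fold change, -0.25 to -0.0066, did not include 0 before adjustment, and the limma adjusted p was 0.186.

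The STAG subunits, which bind RAD21 and take part in the contact with CTCF, differed more between the 4-OHT libraries than between the groups. So did Ctcf, Smc2 and Ncaph2. Stag2 (ENSMUSG00000025862, chromosome X, 42149317 to 42277185) had 223 and 221 CPM in ethanol but 209 and 257 CPM with 4-OHT, on either side of the ethanol pair. The ratio of library B to A with 4-OHT was 1.23 (exact counting interval 1.15 to 1.33), against 0.991 (0.920 to 1.07) in ethanol. Its log2 fold change was 0.059 (interval -0.13 to 0.25, limma adjusted p = 0.745). The sign of this value depended on which 4-OHT library was left out. Without 4-OHT A, edgeR called Stag2 higher (log2 fold change 0.21), the only one of the 10 called, where 12.0% of all genes were called. Without 4-OHT B the value was -0.093, and edgeR called 0 of the 10 beside 13.3% of all genes.

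Stag1 (ENSMUSG00000037286, chromosome 9, 100597798 to 100959375) had 160 and 175 CPM in ethanol and 168 and 153 CPM with 4-OHT. These groups overlapped, and in contrast to Stag2 library B was the lower of the 4-OHT pair (ratio of B to A 0.908, interval 0.833 to 0.989). Its log2 fold change was -0.060 (interval -0.22 to 0.095, limma adjusted p = 0.663).

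Ctcf (ENSMUSG00000005698, chromosome 8, 105636568 to 105682922) encodes the zinc finger protein of loop anchors and domain boundaries. Its log2 fold change was nearest to 0 among those of the 10 genes that are not condensin subunits. Ctcf had 226 and 235 CPM in ethanol and 243 and 220 CPM with 4-OHT, so that the 4-OHT pair lay outside the ethanol pair on both sides. The log2 fold change was 0.0058 (interval -0.14 to 0.15, limma adjusted p = 0.970). Of its 4860 exon bases, 484 also lie in exons of Agrp or Gm5914 on the other strand, and the authors' use of strand is not given in the sources used here.

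Nipbl (ENSMUSG00000022141, chromosome 15, 8290617 to 8444463), the loader, had the lowest CPM of the 10 and close pairs, with 138 and 136 CPM in ethanol and 140 and 143 CPM with 4-OHT. The 4-OHT values were both higher, by little. The log2 fold change was 0.047 (interval -0.083 to 0.18, limma adjusted p = 0.687).

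Among the condensin genes, Smc2 (ENSMUSG00000028312, chromosome 4, 52439243 to 52488260), an ATPase of both condensins, had 292 and 300 CPM in ethanol and 304 and 294 CPM with 4-OHT. The groups overlapped, with a log2 fold change of 0.014 (interval -0.11 to 0.13, limma adjusted p = 0.913). Smc4 (ENSMUSG00000034349, chromosome 3, 69004738 to 69034623), its partner, had 296 and 321 CPM in ethanol and 293 and 270 CPM with 4-OHT. The 4-OHT pair was lower without overlap, although ethanol A and 4-OHT A were nearly level. The log2 fold change of Smc4 was -0.13 (interval -0.27 to 0.010, limma adjusted p = 0.245), the lowest of the 10. Ncaph2 (ENSMUSG00000008690, chromosome 15, 89355719 to 89372826), the condensin II kleisin, had 266 and 258 CPM in ethanol and 256 and 267 CPM with 4-OHT. Its groups overlapped and its log2 fold change was -0.0045 (interval -0.13 to 0.12, limma adjusted p = 0.973). As 1364 of its 4198 exon bases are shared with Sco2 and Tymp on the other strand, its level is uncertain.

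Groups did not overlap for 5 of the 10 genes (Smc1a, Smc3, Rad21, Nipbl and Smc4), a share close to that over all genes, 52.1%. The 10 genes had 872 to 2680 reads in a library, a counting error of 3.39% to 1.93%. Over the 10 genes the mean chi-square for counts of a pair of libraries was 1.75 in ethanol and 6.08 with 4-OHT (counting noise alone gives a value near 1), beside 1.63 and 1.93 over all genes with at least 20 reads. Stag2 alone had a chi-square of 34.2 with 4-OHT and 0.0571 in ethanol, and without it the means over the other 9 genes were 2.96 with 4-OHT and 1.94 in ethanol. The wider set goes down to genes of 20 reads, and at a given relative spread the chi-square grows with the number of reads. These sets are therefore not matched in depth, and no test of this was run.

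Of 1410 genes with a mean between those of Nipbl and Rad21 (139 and 392 CPM), limma called 160 (11.3%), and the smallest change limma called was 0.195 on the log2 scale, a ratio of 1.14. All 10 genes differed by less than a ratio of 1.1 between groups, a bound chosen after their values were seen, as did 73.0% of the genes in that range and 49.8% of all genes. The plot of all genes shows the 10 in the narrow band of well expressed, little changed genes.

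**Figure D2:**
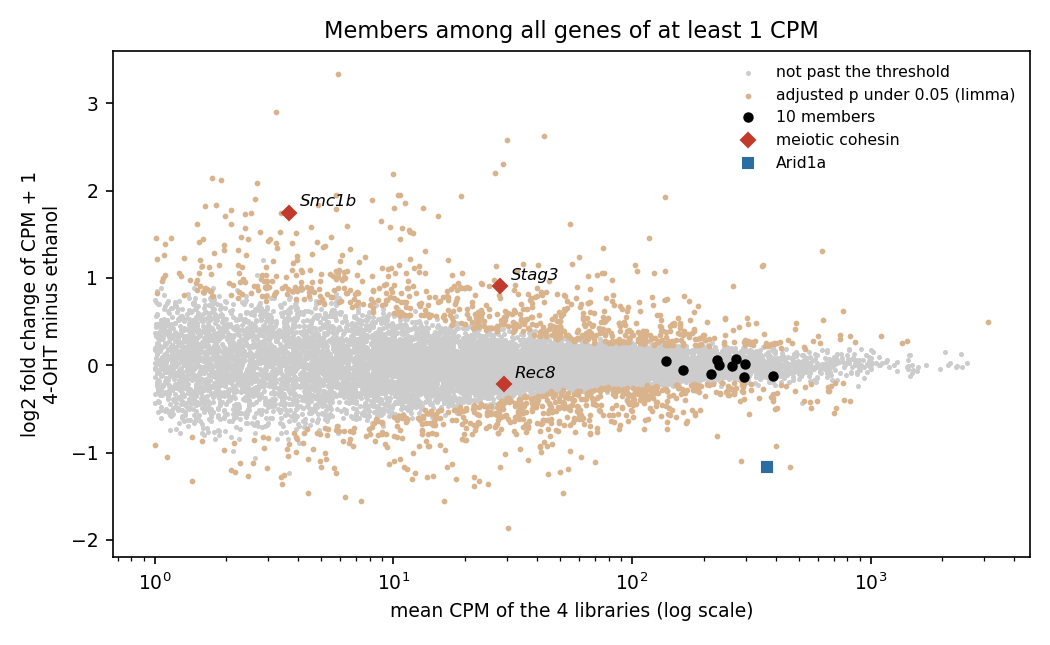
Difference of the mean log2(CPM + 1) between 4-OHT and ethanol (vertical axis, positive where 4-OHT is higher) against mean CPM (log scale, horizontal axis) for genes of at least 1 CPM; grey points did not pass, tan points had a limma adjusted p under 0.05. The 10 genes (black) lie between -0.13 and 0.075, while Smc1b and Stag3 (red) lie at 1.75 and 0.91 and Arid1a (blue square) at -1.16.

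To compare levels between genes, CPM was divided by the kilobases of annotated exon. On this scale Rad21 was the highest in ethanol, at 96.8 ± 2.88 CPM per kb, followed by Ncaph2 (62.4 ± 1.42), Smc4 (59.2 ± 3.29), Smc2 (54.0 ± 0.969), Smc3 (48.2 ± 1.29) and Ctcf (47.4 ± 1.28). Smc1a was at 38.3 ± 1.13, Stag2 at 26.9 ± 0.170, Nipbl at 14.5 ± 0.155 and Stag1 at 14.2 ± 0.849 CPM per kb (SD, n = 2 each). The neighbours Ncaph2 and Smc4, Smc3 and Ctcf, and Nipbl and Stag1 overlapped between libraries, and their order is not shown. The order also depends on the length used: per kb of coding sequence, Ctcf (104 ± 2.82 in ethanol) stood above Smc2 (82.8 ± 1.49), Smc4 (79.9 ± 4.43) and Smc3 (73.2 ± 1.96), Smc1a (59.8 ± 1.76) overlapped Stag2 (58.5 ± 0.369), and Stag1 (43.6 ± 2.60) stood above Nipbl (16.3 ± 0.174), while Rad21 (215 ± 6.41) and Ncaph2 (144 ± 3.26) stayed first and second. Per kb of exon, levels with 4-OHT ran from 13.6 ± 0.932 (Stag1) to 88.6 ± 1.73 CPM per kb (Rad21). Among 13609 genes with an annotated length, the 10 stood between the 69.8th percentile (Stag1) and the 97.0th (Rad21) by mean CPM per kb.

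Ratios between partners were taken within each library, with no test, since the smallest exact permutation p that 2 against 2 libraries allow is 0.333. Rad21 over Smc3 was 2.00 and 2.01 in ethanol and 1.74 and 1.75 with 4-OHT, per exon length. The pairs were tight and apart. Smc1a over Smc3 was 0.793 and 0.796 in ethanol and 0.714 and 0.693 with 4-OHT, again lower in both 4-OHT libraries. These 2 ratios share Smc3 and are not independent. Both had to be lower without overlap, because each 4-OHT library had more Smc3 and less Rad21 and Smc1a than either ethanol library. They add no separate evidence to the values of the single genes. For these ratios and those below, how often ratios of other gene pairs lie apart was not computed. For single genes, the groups did not overlap in 52.1%.

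Smc2 over Smc4 was 0.937 and 0.889 in ethanol and 0.987 and 1.03 with 4-OHT, without overlap. Ncaph2 over Smc2 overlapped, at 1.19 and 1.12 against 1.10 and 1.18. Stag2 over Stag1 was 1.98 and 1.81 in ethanol and 1.76 and 2.40 with 4-OHT, so that the spread within 4-OHT exceeded the difference of the group means. The length used sets the height of these ratios but not the contrast between groups: with coding length in place of exon length, Ncaph2 over Smc2 averaged 1.73 in place of 1.15, and Smc2 over Smc4 averaged 1.09 in place of 0.962, on the other side of 1.

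**Figure D3:**
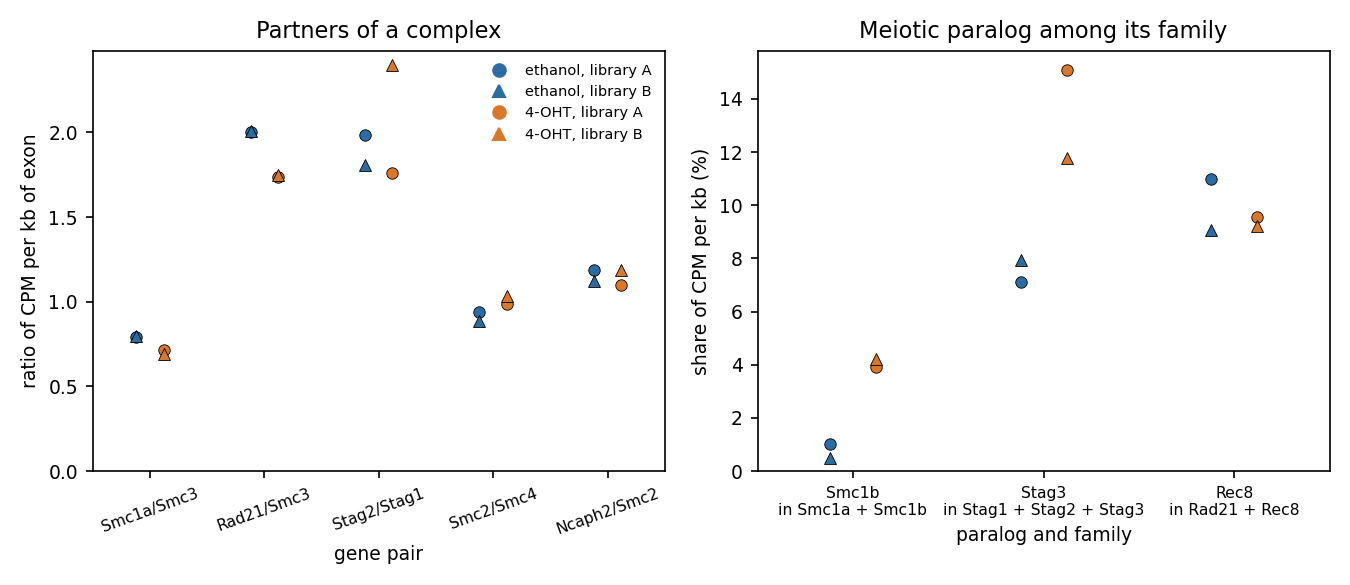
Left, ratio of CPM per kb of exon between partners in each library; right, percent of the family's CPM per kb that came from the meiotic paralog (circles, library A; triangles, library B; blue, ethanol; orange, 4-OHT). Rad21 over Smc3 lies at 2.00 and 2.01 in ethanol and at 1.74 and 1.75 with 4-OHT, and the Smc1b share at 1.01% and 0.490% against 3.93% and 4.24%.

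Of the 3 meiotic paralogs measured (Rad21l is not listed in the table), Smc1b and Stag3 rose, 0 fell and Rec8 did not pass, with a median log2 fold change of 0.91, where 5.25% of all genes rose and 4.20% fell. Smc1b (ENSMUSG00000022432, chromosome 15, 85064689 to 85131964), the meiotic SMC1, had 10 and 5 reads in ethanol and 43 and 39 reads with 4-OHT, which is 1.55 and 0.780 CPM against 6.11 and 6.20 CPM. All 4-OHT values were above all ethanol values, by 5.28-fold in the mean CPM. The log2 fold change of CPM + 1, understated at so low a level, was 1.75 (interval 1.24 to 2.25, limma adjusted p = 0.00109). Run on the reads, edgeR and DESeq2 gave log2 fold changes of 2.38 and 2.40. Stag3 (ENSMUSG00000036928, chromosome 5, 138280240 to 138312393), the meiotic STAG, rose from 17.8 and 20.6 CPM to 40.2 and 33.7 CPM (log2 fold change 0.91, interval 0.63 to 1.18, limma adjusted p = 0.00149). Rec8, the meiotic kleisin, had 34.3 and 28.9 CPM in ethanol, against 27.9 and 26.1 CPM after 4-OHT (limma adjusted p = 0.288).

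Per exon length, Smc1b made up 1.01% and 0.490% of the summed Smc1a and Smc1b level in ethanol and 3.93% and 4.24% with 4-OHT. Stag3 made up 7.11% and 7.95% of the 3 STAG genes in ethanol and 15.1% and 11.8% with 4-OHT. Rec8 was 11.0% and 9.05% of Rad21 and Rec8 in ethanol and 9.56% and 9.23% with 4-OHT. The somatic genes thus held most of each family's level in all 4 libraries on this scale. The height of the shares depends on the length used: Stag1 has 11781 exon and 3841 coding bases, Stag3 5733 and 3922. Shares per coding length were not computed. Of 10 germ cell markers, 3 rose in limma with Smc1b and Stag3 and 7 did not pass: Stra8 rose from 7.93 ± 1.36 to 52.0 ± 4.81 CPM, Mael from 11.7 ± 0.826 to 21.9 ± 0.984 CPM and Hormad1 from 18.6 ± 0.634 to 27.4 ± 0.147 CPM, of which DESeq2 did not call Hormad1 (adjusted p = 0.107). The sum over the 10 was 109 and 112 CPM in ethanol and 181 and 183 CPM with 4-OHT, and Stra8 made up most of the difference: without it the sums were 102 and 103 CPM against 125 and 134 CPM. Ddx4 (20.4 ± 1.45 and 17.5 ± 1.16 CPM) and Dazl (11.0 ± 1.49 and 12.7 ± 1.75 CPM), germ cell genes outside meiosis too, did not pass. Their part in the result was not tested. Limma lost Smc1b (adjusted p = 0.161 without either) and Stag3 (adjusted p = 0.174 without A and 0.146 without B) when a 4-OHT library was left out, as it lost all its calls; edgeR kept both.

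Of the 8 genes that load, release or acetylate cohesin, 0 passed in limma in either direction and 0 in DESeq2. At an unadjusted p under 0.05 limma had 4, and the median log2 fold change was 0.094. Over all genes tested, limma called 9.45% (23.9% at an unadjusted p under 0.05), edgeR 15.8% and DESeq2 5.07%. These shares serve for the lists below too. Among the 8, edgeR called 1 higher. That gene, Pds5a, which works with WAPL and the ESCO acetyltransferases, had 166 and 179 CPM in ethanol and 204 and 189 CPM with 4-OHT (limma adjusted p = 0.105, edgeR adjusted p = 0.0388). Hdac8, the SMC3 deacetylase, had 9.61 and 9.05 CPM in ethanol and 11.8 and 11.3 CPM with 4-OHT, the largest difference of the list (log2 fold change 0.28, limma adjusted p = 0.303). Wapl, which releases cohesin, had 250 ± 4.99 CPM in ethanol and 222 ± 2.32 CPM with 4-OHT (limma adjusted p = 0.0880). Mau2, the partner of Nipbl, had a ratio of 0.908 between groups, against 1.03 for Nipbl, and neither passed.

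**Figure D4:**
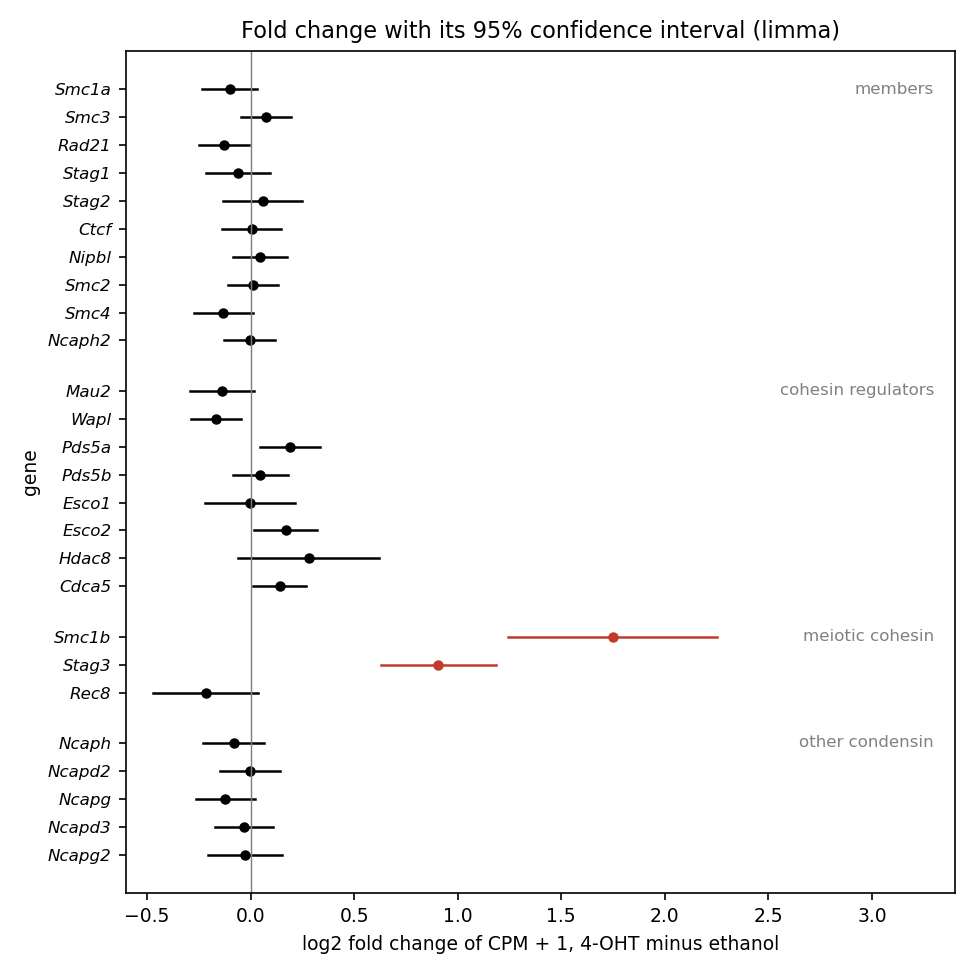
Difference of the mean log2(CPM + 1) between 4-OHT and ethanol (point; horizontal axis, positive where 4-OHT is higher), with its 95% confidence interval (line) for the 10 genes, cohesin regulators, meiotic cohesin and the other condensin subunits; red marks a limma adjusted p under 0.05. The intervals of the 10 genes stay between -0.27 and 0.25, and those of Smc1b (1.24 to 2.25) and Stag3 (0.63 to 1.18) lie above all of them.

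Of 7 genes that protect or cleave cohesin at division, Sgo2a, a shugoshin gene, fell from 133 and 142 CPM to 117 and 115 CPM (log2 fold change -0.24, limma adjusted p = 0.0427), and 6 did not pass; the median log2 fold change of the list was -0.028. Limma lost that call without any 1 library, and DESeq2 did not call Sgo2a (adjusted p = 0.188). EdgeR called it with all libraries (adjusted p = 0.0121). It lost the call without ethanol B (log2 fold change -0.19) and without 4-OHT B (-0.23). In Sgo2a, 2455 of 7007 exon bases are shared with Kctd18 on the other strand. Sgo1, the shugoshin of mitotic centromeres, had 81.0 ± 2.35 CPM in ethanol and 71.3 ± 1.91 CPM with 4-OHT (limma adjusted p = 0.144). Of 18 mitotic genes, 0 rose and 2 fell in limma, where 4.20% of all genes fell: Aurkb from 126 ± 3.71 to 104 ± 0.247 CPM and Kif23 from 169 ± 4.40 to 141 ± 6.45 CPM, with a median log2 fold change over the list of -0.066. DESeq2 called 0 of the 18 (adjusted p = 0.106 for Aurkb and 0.0819 for Kif23), and edgeR called 3 lower.

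Of 8 other condensin subunits and partners, 0 passed in limma and DESeq2 (2 at an unadjusted p under 0.05) and edgeR called 1 lower, with a median log2 fold change of -0.029. The condensin I subunit Ncapd2 had 419 ± 10.3 CPM in ethanol and 419 ± 36.0 CPM with 4-OHT. Kif4, a chromokinesin that binds condensin, was the one edgeR called, at 105 and 111 CPM in ethanol and 97.5 and 86.9 CPM with 4-OHT (limma adjusted p = 0.0889, edgeR adjusted p = 0.0328), with 832 exon bases shared with Pdzd11 on the other strand. Mcph1, a regulator of condensin II, had 66.8 ± 0.195 and 75.8 ± 3.14 CPM (limma adjusted p = 0.158). Of the 8 genes of SMC5/6 and Smchd1, 0 passed in limma, edgeR or DESeq2 (2 at an unadjusted p under 0.05), with a median log2 fold change of 0.099. The SUMO ligase gene Nsmce2 had 46.7 ± 0.872 and 40.1 ± 0.831 CPM, and Nsmce3 32.7 ± 0.479 and 36.6 ± 1.57 CPM, in ethanol and 4-OHT.

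Of 10 genes for a CTCF paralog and other loop or boundary factors, 1 rose and 1 fell in limma, with a median log2 fold change of 0.020, and edgeR called 1 higher and 2 lower. The further one was Top2b, a topoisomerase gene, at 111 and 115 CPM in ethanol and 94.1 and 98.2 CPM with 4-OHT (limma adjusted p = 0.0506, edgeR adjusted p = 0.0220), with 1793 exon bases shared with Rarb on the other strand. Vezf1, a zinc finger gene linked to insulators, rose from 91.4 and 102 CPM to 127 and 126 CPM (log2 fold change 0.39, limma adjusted p = 0.00612). Patz1, another zinc finger gene, fell from 177 and 167 CPM to 142 and 146 CPM (log2 fold change -0.26, limma adjusted p = 0.0249). Limma and edgeR both lost Patz1 without ethanol A (log2 fold change -0.22 in each), and DESeq2 did not call it (adjusted p = 0.0722). The Ctcf paralog Ctcfl, a testis gene named after its values were seen, had 3 and 1 reads in ethanol and 8 and 4 reads with 4-OHT (limma adjusted p = 0.223). At the nuclear lamina, 1 of 8 genes rose and the median log2 fold change was -0.028. Lmna, the A-type lamin gene, had 57.5 and 53.7 CPM in ethanol, below its 66.2 and 78.8 CPM with 4-OHT (limma adjusted p = 0.0323), a call lost without ethanol B (limma adjusted p = 0.0933) and in DESeq2 (adjusted p = 0.0884), and by edgeR without 4-OHT B (adjusted p = 0.0898). Emd, which encodes emerin, had 129 ± 4.77 and 117 ± 7.56 CPM (limma adjusted p = 0.234).

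Over the 52 measured of these 53 other genes, 4 rose, 2 fell and 46 did not pass in limma, with a median log2 fold change of 0.0098, while edgeR called 5 higher and 4 lower of the 50 it tested and DESeq2 called 3. The share limma called, 6 of 52, is near its 9.45% over all genes. Over all genes tested, edgeR called 15.8% and DESeq2 5.07%.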

How the data were processed

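RNA-seq of 4 libraries (2 ethanol, 2 4-OHT) was analysed from 1 table of group values. The submitters' processing notes name mm10, HISAT2, Trimmomatic, FastQC and edgeR, without roles; the read counter, annotation, use of strand and versions were not given in the sources used here. Per the file headers, the authors deposited the mean CPM of each group, a log2 fold change and an adjusted p-value. The 2 latter columns were left aside as out of register with the genes: the authors' deposited log2 fold change had a Spearman rho of 0.018 with the ratio of both mean CPM values, across 14382 genes, which are not independent.

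Each group mean is a sum of whole reads of 2 libraries, each times its own step. Steps were fitted to the CPM columns the authors deposited, beginning at low genes (0.155 and 0.156 CPM per read in ethanol, 0.142 and 0.159 with 4-OHT). All values then came out as whole reads within the printed digits, with 1 possible pair for 99.7% and 99.9% of genes; 41 ambiguous values were settled by libraries within 2-fold of each other and 9 genes were left out. Values shifted at random came out whole in 0.333% of 3000 trials.

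The fit was limma-trend 3.58.1 (R 4.3.3) on log2(CPM + 1) over 14373 genes, two-sided, with p-values adjusted by Benjamini-Hochberg across all of them and no filter; folds of low genes are understated on this scale. Alternatives were edgeR 4.0.16, DESeq2 1.42.0, a pseudocount of 0.1, a minimum of 1 CPM, DESeq2 size factors and leaving out each library; edgeR with a library left out, coding length for single genes, the germ cell sum without Stra8 and the pair noise without Stag2 were added after seeing the data. Intervals from reads cover counting error alone; without molecular identifiers, reads are not separate molecules. Lengths and coordinates are from Gencode vM21 (mm10, 1-based). The scripts were tested on simulated data.

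The genes and lists were chosen with earlier results of these data known. Named besides the 10 were Arid1a, every called gene of the wider lists, the 2 largest differences per list at 5 CPM or more, and at most 4 called genes each of the mitotic and marker lists; Sox2, Mau2, Wapl, Ncapd2, Ddx4, Dazl, Top2b and Ctcfl were named after their values were seen. Among other markers limma called Nanog and Tdgf1 higher and Sox2, Esrrb and Tfcp2l1 lower (ESC), Col1a2 and Thy1 higher and Col5a2 lower (feeder), Cdx2 higher and Krt7 lower (trophoblast), and 0 of 5 endoderm genes.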

Additional observations from a re-analysis of the deposited data

How the results depend on the processing

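The count of 0 among the 10 genes was the same with a pseudocount of 0.1, a minimum of 1 CPM, DESeq2 size factors, edgeR and DESeq2, and ranged from 0 to 1 when a library was left out (limma and edgeR). Over all genes limma called 1358, edgeR 2043 and DESeq2 700, and leaving out a library gave 0 to 1769, the 0 being limma without either 4-OHT library. Of the 52 other genes limma called 6, edgeR 9 and DESeq2 3, and leaving out a library gave 0 to 9. With a library left out, the log2 fold change crossed 0 for Stag1 (-0.13 to 0.0093), Stag2 (-0.093 to 0.21), Ctcf (-0.068 to 0.079), Smc2 (-0.011 to 0.039) and Ncaph2 (-0.034 to 0.025); the 5 others of the 10 kept their sign in all settings. With coding length, Rad21 over Smc3 averaged 2.74, Stag2 over Stag1 1.41, Smc2 over Smc4 1.09 and Ncaph2 over Smc2 1.73. Lmna and Sgo2a were also lost with a pseudocount of 0.1 (adjusted p = 0.0514 and 0.0550) and in DESeq2 (0.0884 and 0.188), and Patz1 in DESeq2 (0.0722). The cause was not tested. No paired analysis was possible because the deposited columns carry no replicate numbers. The smallest change limma called at the level of these genes was 0.195 on the log2 scale.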
